A study of Mus musculus with 24 samples.

Results

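Germ cells carry a set of proteins that most other cells keep silent, and 40 genes of this kind were followed in mouse embryonic stem cells (ESCs). They were taken by symbol from a fixed list of germline, piRNA pathway and meiosis genes, and all 40 were found among the 54242 gene symbols of the deposited expression table. By role, 13 belong to the piRNA pathway and the nuage, 8 to the synaptonemal complex and chromosome axis, 8 to meiotic recombination, 6 are regulators of germ cells and meiotic entry, and 5 are the Tex19 paralogs and other germ cell proteins.

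RNA-seq was performed on 24 libraries of CGR8, a mouse ESC line, with 3 libraries in each of 8 groups. Cells received a pool of non-targeting siRNAs (siControl in the labels, si-CTL here) or a pool against Rsl24d1 (siRSL24D1, si-Rsl24d1 here), which encodes a ribosome biogenesis factor of the large subunit. Each siRNA was used without doxycycline (nores) and with it (RESCUE). The rescue line carries a doxycycline-inducible Rsl24d1 open reading frame that the siRNAs do not target, per the study's text, and its cells were selected with puromycin. The labels give an empty vector for the groups without doxycycline. In its assay of ribosomal subunits, the study used rescue line cells without doxycycline as the condition without rescue. Whether the RNA-seq groups without doxycycline also came from the rescue line, and whether that line is 1 clone, is not given in the sources used here. Day 0 cells (ESC) were kept in serum with LIF, the cytokine that sustains self-renewal. Day 4 cells (DIF) were transfected in the same way and then exposed to 10 nM retinoic acid (RA) for 4 days. LIF was left out of the RA medium according to the methods, but the series' own design text lists it together with RA. The labels give 72 h after transfection in one field and 48 h in another.

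In the germline, piRNAs are short RNAs that guide PIWI proteins to transposons, and they are made and used in the nuage, a cytoplasmic granule rich in Tudor domain proteins. In meiosis, cohesins and axis proteins fold each chromosome into loops, the synaptonemal complex zips the homologs together, and recombination enzymes repair programmed DNA breaks. RA is the signal that brings germ cells into meiosis through Stra8, and in ESCs many germline promoters are held silent by DNA methylation and by a Polycomb complex that carries the DNA-binding proteins MGA, MAX and E2F6.

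MGA and MAX bind the E-box letters CACGTG, E2F6 binds sites with the letters TCCCGC, and RA receptors bind paired copies of the half-site AGGTCA. These letters were searched on both strands of RefSeq promoter windows (GRCm38.p6, 250 bases before to 50 after the start), which were found for 35 of the 40 genes. An E-box stood in the windows of 13 of the 35 (37.1%), against 8.09% of the 27025 genes with a window and 11.5% of the 11432 genes that were both tested and matched. An E2F site was found in 17 (48.6%), against 22.0% and 39.4%. The half-site was found in 5 (14.3%), against 18.1% and 14.9%. Among the 32 tested members with a window, the set to compare with the tested genes, the shares were 37.5%, 53.1% and 9.38% in the same order. No window held an E-box that overlapped an E2F site, and 8 held both. The share of genes with an E-box is the value that stood furthest from that of all promoters. These are counts of letters, which say nothing of binding in these cells.

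Windows are shown for 6 genes, chosen after their values were seen: Dazl, Smc1b, Mov10l1 and Stra8, which were called higher with RA in every condition, and Hormad1 and Rec8, which were higher with si-Rsl24d1 at day 0. Each is written 5′ to 3′ on the strand of its gene. Capitals mark E-boxes, E2F sites on either strand (TCCCGC or GCGGGA) and half-sites.
Dazl, chr17:50293571-50293870, minus strand: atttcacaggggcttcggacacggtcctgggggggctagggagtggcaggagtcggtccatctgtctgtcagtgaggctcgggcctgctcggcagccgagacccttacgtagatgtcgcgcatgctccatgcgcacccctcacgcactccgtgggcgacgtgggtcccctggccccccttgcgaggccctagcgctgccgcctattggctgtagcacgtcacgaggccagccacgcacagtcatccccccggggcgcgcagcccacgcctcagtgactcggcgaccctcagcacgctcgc
Smc1b, chr15:85131908-85132207, minus strand: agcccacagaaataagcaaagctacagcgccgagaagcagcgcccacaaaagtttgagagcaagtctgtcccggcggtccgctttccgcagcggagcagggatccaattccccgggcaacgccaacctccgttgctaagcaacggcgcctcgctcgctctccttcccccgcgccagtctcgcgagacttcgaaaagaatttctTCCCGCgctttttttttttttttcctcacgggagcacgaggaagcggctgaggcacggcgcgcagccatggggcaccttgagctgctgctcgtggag
Mov10l1, chr15:88982744-88983043, plus strand: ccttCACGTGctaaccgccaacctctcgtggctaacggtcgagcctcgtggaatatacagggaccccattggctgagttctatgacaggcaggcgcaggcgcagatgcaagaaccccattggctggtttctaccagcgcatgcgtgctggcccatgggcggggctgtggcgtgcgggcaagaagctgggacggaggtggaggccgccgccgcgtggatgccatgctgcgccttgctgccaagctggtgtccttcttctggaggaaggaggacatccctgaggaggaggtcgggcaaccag
Stra8, chr6:34920698-34920997, plus strand: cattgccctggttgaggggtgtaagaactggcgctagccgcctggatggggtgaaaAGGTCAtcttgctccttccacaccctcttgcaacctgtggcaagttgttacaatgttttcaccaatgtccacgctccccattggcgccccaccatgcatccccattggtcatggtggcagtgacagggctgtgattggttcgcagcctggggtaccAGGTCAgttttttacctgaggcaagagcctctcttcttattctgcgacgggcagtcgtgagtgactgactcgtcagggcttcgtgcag
Hormad1, chr3:95559427-95559726, plus strand: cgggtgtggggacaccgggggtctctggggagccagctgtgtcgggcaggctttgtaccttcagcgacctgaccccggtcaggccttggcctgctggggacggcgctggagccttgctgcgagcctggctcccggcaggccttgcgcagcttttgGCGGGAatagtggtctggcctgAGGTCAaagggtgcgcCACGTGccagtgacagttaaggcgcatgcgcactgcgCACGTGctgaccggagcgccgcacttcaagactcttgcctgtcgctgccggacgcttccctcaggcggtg
Rec8, chr14:55617916-55618215, plus strand: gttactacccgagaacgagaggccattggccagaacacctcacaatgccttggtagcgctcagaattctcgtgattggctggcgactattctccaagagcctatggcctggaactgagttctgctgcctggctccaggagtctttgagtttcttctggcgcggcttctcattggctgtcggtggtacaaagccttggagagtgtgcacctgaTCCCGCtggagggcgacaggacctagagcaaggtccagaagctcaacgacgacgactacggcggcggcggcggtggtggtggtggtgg

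The windows differ in what they hold. Stra8 has 2 half-sites and neither other motif, Hormad1 has 2 E-boxes, an E2F site and a half-site, and the Dazl window has none of the letters searched. Of the tested genes with a window, an E-box was held by 2 of the 8 that were called higher with RA in all 4 conditions described below, by 5 of the 14 called higher in 1 to 3 conditions and by 5 of the 10 called higher in none.

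Values are given as log2(TPM + 1). TPM measures transcripts relative to all those in a library and is corrected for transcript length, so that levels can be compared between genes. Differences are log2 fold changes of TPM + 1, which understate the change of weakly expressed genes. A gene was called higher or lower when its adjusted p in limma was below 0.01 and its change was over 1.8-fold (0.848 on the log2 scale). The targeted transcript was checked first. Rsl24d1 was at 7.22, 7.14 and 7.10 in si-CTL and at 5.23, 5.28 and 5.07 in si-Rsl24d1 at day 0, a fall by 1.95 (SE 0.07, limma adjusted p = 3.24e-14), and at 6.70, 6.60 and 6.94 in si-Rsl24d1 with rescue, where it was still below si-CTL with rescue by −0.50 (limma adjusted p = 2.19e-05). At day 4 the 2 siRNAs no longer differed beyond the spread, at 6.60, 6.67 and 6.61 in si-CTL and 6.50, 6.61 and 6.65 in si-Rsl24d1 (log2 fold change −0.04, limma adjusted p = 0.66). The 3 si-Rsl24d1 libraries at day 0 therefore lie below all the others, and the day 4 libraries overlap. TPM sum to 1000000 in each library and keep no read number, so the depth is unknown. Markers of pluripotent cells, 8 genes, summed to between 2400 and 2450 TPM in si-CTL at day 0 and to between 1560 and 1660 at day 4, with none at 0. Nanog went the other way, from a mean level of 7.53 to 8.32. Of 8 markers of the RA response, 7 could be tested and 3 were called higher at day 4 in si-CTL (Crabp2 by 1.31 among them). Hoxa3, also among the 3, had day 0 group means of 0.146 to 0.27. It reached the limit for testing, a mean of 0.5 over all libraries, only through day 4, which helped to select its call.

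The 40 genes covered a wide range of levels. Over the 24 libraries of both days, Tex19.1 had the highest mean at 6.19, followed by Hsf2bp at 5.51, Tdrd12 at 5.40 and Sycp3 at 5.25. Tdrd6, Tdrd9, Spo11, Msh4 and Mei1 had means under 0.5 over all libraries, reached at most 0.566 TPM in any library, and were left out of the tests. Spo11 makes the DNA breaks of meiosis, and its highest value was 0.296 TPM. The other 35 passed this limit. Asz1, a nuage protein, and Dpep3 passed it only through their day 4 libraries, with means of 0.20 and 0.42 over those of day 0, so that a rise with RA was a condition of their being tested.

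**Figure D1:**
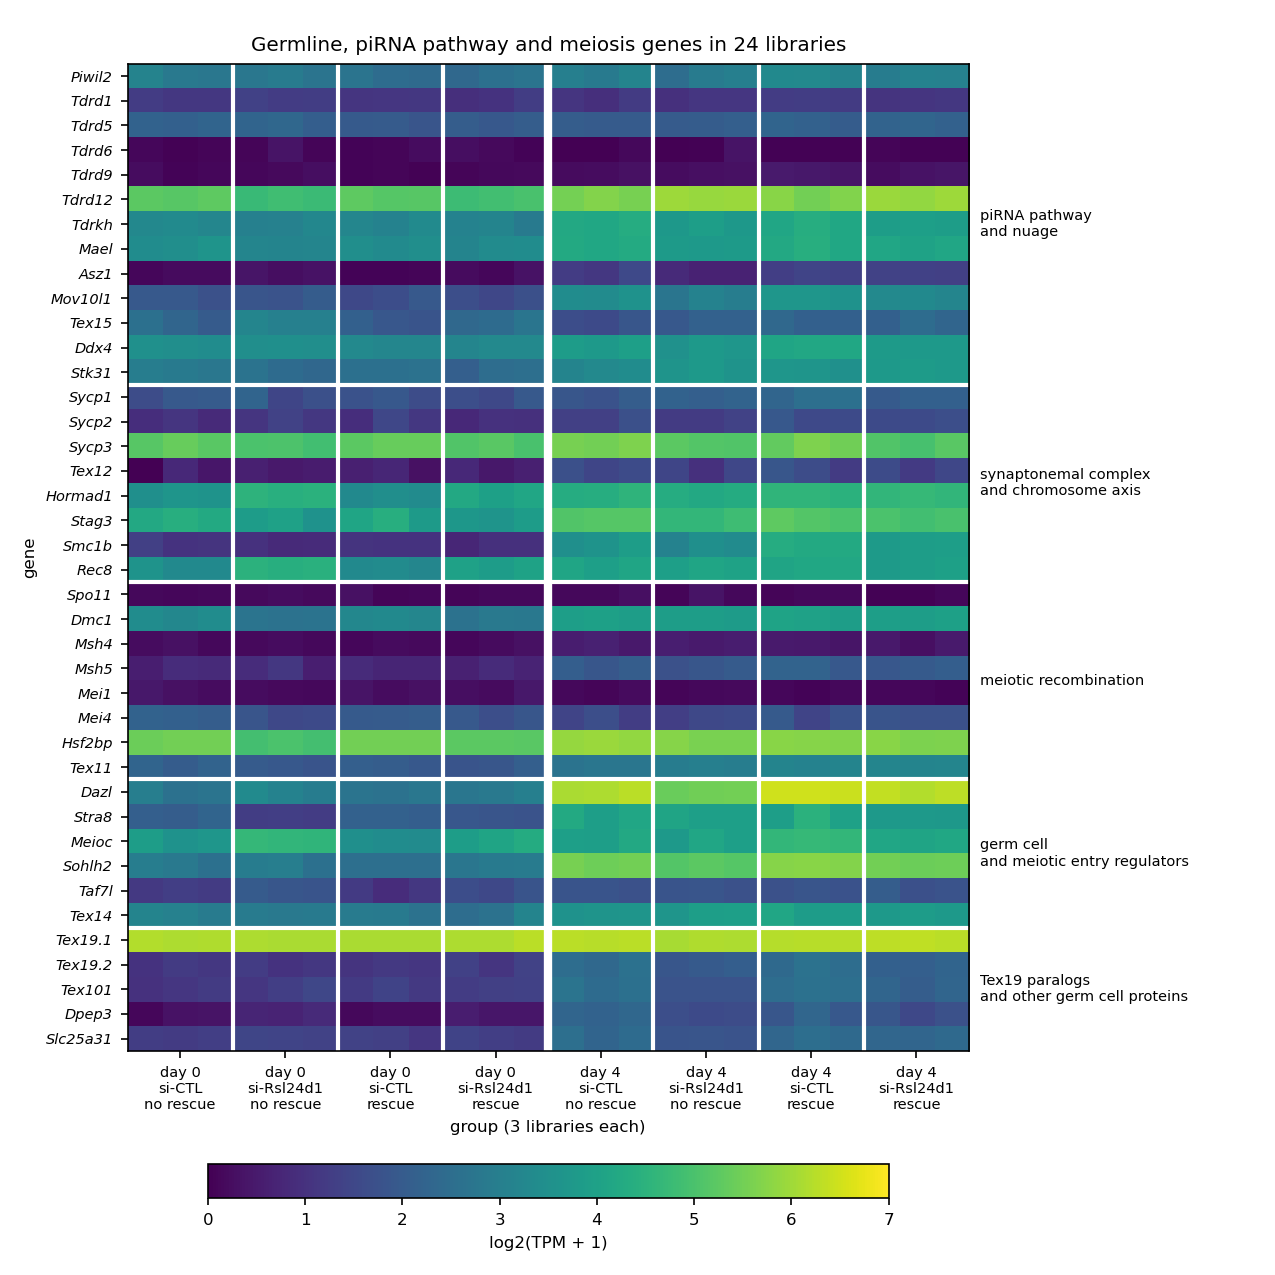
The colour gives log2(TPM + 1) of each of the 40 genes (rows, grouped by role) in each of 24 libraries (columns, 3 a group, day 0 on the left and day 4 of RA on the right). Tex19.1 is bright throughout at 6.09 to 6.33, Dazl and Sohlh2 brighten from day 0 to day 4, and Spo11, Tdrd6 and Mei1 stay dark.

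Many of the 35 tested genes rose from day 0 to day 4 of RA. No day 4 group was without RA, so a change with RA here means day 4 against day 0. RA, time since transfection and, per the methods, the loss of LIF change together in it and cannot be told apart. In si-CTL cells without rescue, 14 were called higher at day 4 and none lower, where 6.77% of the 16447 tested genes were called higher and 8.24% lower. Without Asz1 and Dpep3 it was 12 of 33, against 6.08% of the 15781 genes whose mean over the day 0 libraries also reached 0.5. On the adjusted p alone, 28 were higher and 2 lower, against 24.1% and 36.7% of all tested genes. The median log2 fold change of the 35 was 0.59, against −0.10 over all tested genes. In a bulk library, more cells of a type and more RNA per cell cannot be told apart.

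The rises of Dazl and Sohlh2 were larger than those of the other 33 genes, and 3 of the 6 regulators of germ cells were called. Dazl, an RNA-binding protein that licenses germ cells for meiosis, was at 3.00, 2.62 and 2.70 at day 0 and at 6.12, 6.13 and 6.27 at day 4. No day 4 library came near the day 0 ones, and mean TPM went from 5.87 ± 0.982 to 71.2 ± 4.09 (SD, n = 3). The log2 fold change was 3.40 (SE 0.10, limma adjusted p = 3.5e-16). Sohlh2, a transcription factor of early spermatogonia and oocytes, was at 2.96, 2.83 and 2.60 at day 0 and at 5.57, 5.46 and 5.52 at day 4. All 3 day 4 libraries stood clear of day 0 (log2 fold change 2.72, SE 0.09, limma adjusted p = 1.56e-15). Stra8, the RA-induced gene of meiotic entry, was at 2.12, 2.06 and 2.25 at day 0 and at 4.26, 3.93 and 4.15 at day 4. It rose by 1.97 (SE 0.11, limma adjusted p = 3.24e-12), again with no overlap. Meioc, Taf7l and Tex14 of the same group were not called, with log2 fold changes of 0.31, 0.56 and 0.57.

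Among the 8 genes of the synaptonemal complex and chromosome axis, 3 were called higher. Smc1b, the meiotic cohesin subunit, was at 1.34, 1.02 and 1.05 at day 0 and at 3.47, 3.58 and 3.90 at day 4. The groups were far apart, with a log2 fold change of 2.52 (SE 0.11, limma adjusted p = 1.2e-13) and mean TPM of 1.21 ± 0.278 and 11.7 ± 1.99. Tex12, a central element protein of the synaptonemal complex, rose by 1.18, and Stag3, another meiotic cohesin subunit, by 0.85, just over the threshold. The call of Stag3 was lost without any one of 4 of its 6 libraries, at 0.82 to 0.845. Sycp3, a lateral element protein, was at 5.17, 5.38 and 5.21 at day 0 and at 5.57, 5.50 and 5.65 at day 4. The day 4 libraries were the higher ones, yet its log2 fold change of 0.32 was too small for a call. Rec8, the meiotic kleisin, was at 3.59, 3.32 and 3.31 and then at 4.11, 3.94 and 4.13, a difference of 0.65 that was not called. Hormad1, an axis protein that promotes homolog synapsis, fell just short of the threshold at 0.84.

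The piRNA group had 3 of its 11 tested genes called higher. Mov10l1, the helicase that starts piRNA production, was at 1.95, 1.95 and 1.73 at day 0 and at 3.40, 3.37 and 3.57 at day 4. Every day 4 library exceeded every day 0 one (log2 fold change 1.57, SE 0.11, limma adjusted p = 1.94e-10). Asz1 rose by 1.12, from 0.135 ± 0.0419 to 1.49 ± 0.371 TPM, a call that the limit for testing helped to select. Tdrkh, a Tudor protein of the mitochondrial surface, rose by 0.97. Mael, a nuage protein needed for transposon silencing, was at 3.39, 3.47 and 3.61 and then at 4.24, 4.16 and 4.27. These groups did not overlap either, but the change of 0.74 was not called. Ddx4 (Vasa), the helicase that defines the nuage, was at 3.52, 3.45 and 3.41 and then at 3.86, 3.77 and 3.95, a difference of 0.40 that missed the fold threshold. Piwil2, a PIWI protein itself, differed by 0.11 (limma adjusted p = 0.462). Tex15, a factor of piRNA-directed silencing, moved the other way by −0.58 without a call. Exons of Tdrkh overlap those of Oaz3 on the other strand, and since the sources differ on the library kit, reads of this pair may not be separable. The same holds for Sycp3 with Chpt1, Dpep3 with Gm45752 and Tdrd5 with 4930518J20Rik.

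In meiotic recombination, 1 of 5 tested genes was called. Msh5, a crossover factor, rose by 1.24, from 0.704 ± 0.188 to 3.01 ± 0.327 TPM. Dmc1, the meiotic strand exchange recombinase, differed by 0.58, Tex11 by 0.54, Hsf2bp by 0.41 and Mei4, a factor of DNA break formation, by −0.67. None of these 4 was called.

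The last group held 4 called genes of 5. Dpep3, a membrane dipeptidase of germ cells, was at 0.12, 0.35 and 0.36 at day 0 and at 2.30, 2.21 and 2.35 at day 4. Its day 0 level was close to 0, so that, as for Asz1, the limit for testing helped to select it, and its rise was 2.01 (SE 0.10, limma adjusted p = 1.78e-12). Tex101, a glycoprotein of the germ cell surface, was at 1.00, 1.11 and 1.22 and then at 2.68, 2.44 and 2.57, a rise by 1.46 (SE 0.10, limma adjusted p = 8.31e-11). Slc25a31, the germ cell ADP/ATP carrier, rose by 1.15. The 2 Tex19 paralogs, neighbours on chromosome 11 that act in germ cells and placenta, parted here. Tex19.1 was at 6.19, 6.14 and 6.16 and then at 6.26, 6.25 and 6.29, a difference of 0.10. Tex19.2 was at 1.01, 1.22 and 1.14 and then at 2.51, 2.37 and 2.60, a rise by 1.37 (SE 0.09, limma adjusted p = 8.97e-11). Both paralogs had day 4 libraries above day 0, but mean TPM changed from 70.7 ± 1.22 to 76.0 ± 0.943 for Tex19.1 and from 1.18 ± 0.157 to 4.65 ± 0.439 for Tex19.2.

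The RA comparison could be made in 3 more conditions, and none of the 4 shares a library with another. In si-Rsl24d1 without rescue, 13 of the 35 were called higher and 1 lower, against 7.93% and 6.22% of all tested genes. With rescue, 21 were called higher and none lower in si-CTL (10.7% and 4.82% of tested genes), and 18 and none in si-Rsl24d1 (9.34% and 5.57%). Without Asz1 and Dpep3, 12 of 33 were called higher in si-Rsl24d1 without rescue, 19 in si-CTL with rescue and 16 in si-Rsl24d1 with rescue. Of the 15781 genes whose day 0 mean also reached the limit for testing, 7.2%, 10% and 8.34% were called higher in the same order. The median log2 fold change of all 35, Asz1 and Dpep3 included, was 0.63, 1.01 and 0.88 in these 3 conditions. Over all tested genes it was 0.02, 0.12 and 0.07.

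Called higher in all 4 conditions were 8 of the 35 (Mov10l1, Stag3, Smc1b, Msh5, Dazl, Stra8, Sohlh2 and Dpep3), while 4.13% of tested genes were. In at least 1 condition, 23 were called higher, against 14.3% of tested genes. The highest of the 8 group means was a day 4 group for 30 of the 35, as it was for 47.7% of tested genes. Asz1 and Dpep3, which passed the limit for testing only through day 4, were among the 23 and the 30, and Dpep3 among the 8. The single gene called lower was Tex15 in si-Rsl24d1 without rescue, by −1.01 (limma adjusted p = 1.8e-06). Its libraries were at 3.19, 3.04 and 3.06 at day 0, the highest of all groups, and at 1.92, 2.16 and 2.18 at day 4. Smc1b had a log2 fold change of 2.42 in si-Rsl24d1 without rescue, 3.24 in si-CTL with rescue and 2.99 in si-Rsl24d1 with rescue. Dazl had 2.34, 3.78 and 3.42 in the same order.

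Some genes passed in other conditions than si-CTL without rescue. Tdrd12, a Tudor protein with helicase motifs, differed by 0.37 in si-CTL without rescue and was called with si-Rsl24d1, by 1.17 without rescue and 1.03 with it. Dmc1 was likewise called with si-Rsl24d1, by 1.20 and 1.17. Stk31, a Tudor domain kinase, Tex14, a protein of the bridges between germ cells, and Tex11, an X-linked crossover factor, were called in the 3 conditions other than si-CTL without rescue. Ddx4, Hormad1, Rec8 and Meioc were called in si-CTL with rescue, by 0.91, 1.16, 0.85 and 1.22. Rec8, at 0.8487, was barely over the threshold of 0.848, and Mael, at 0.8442, fell just short of it. Whether rescue changed the RA effect was not tested.

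**Figure D2:**
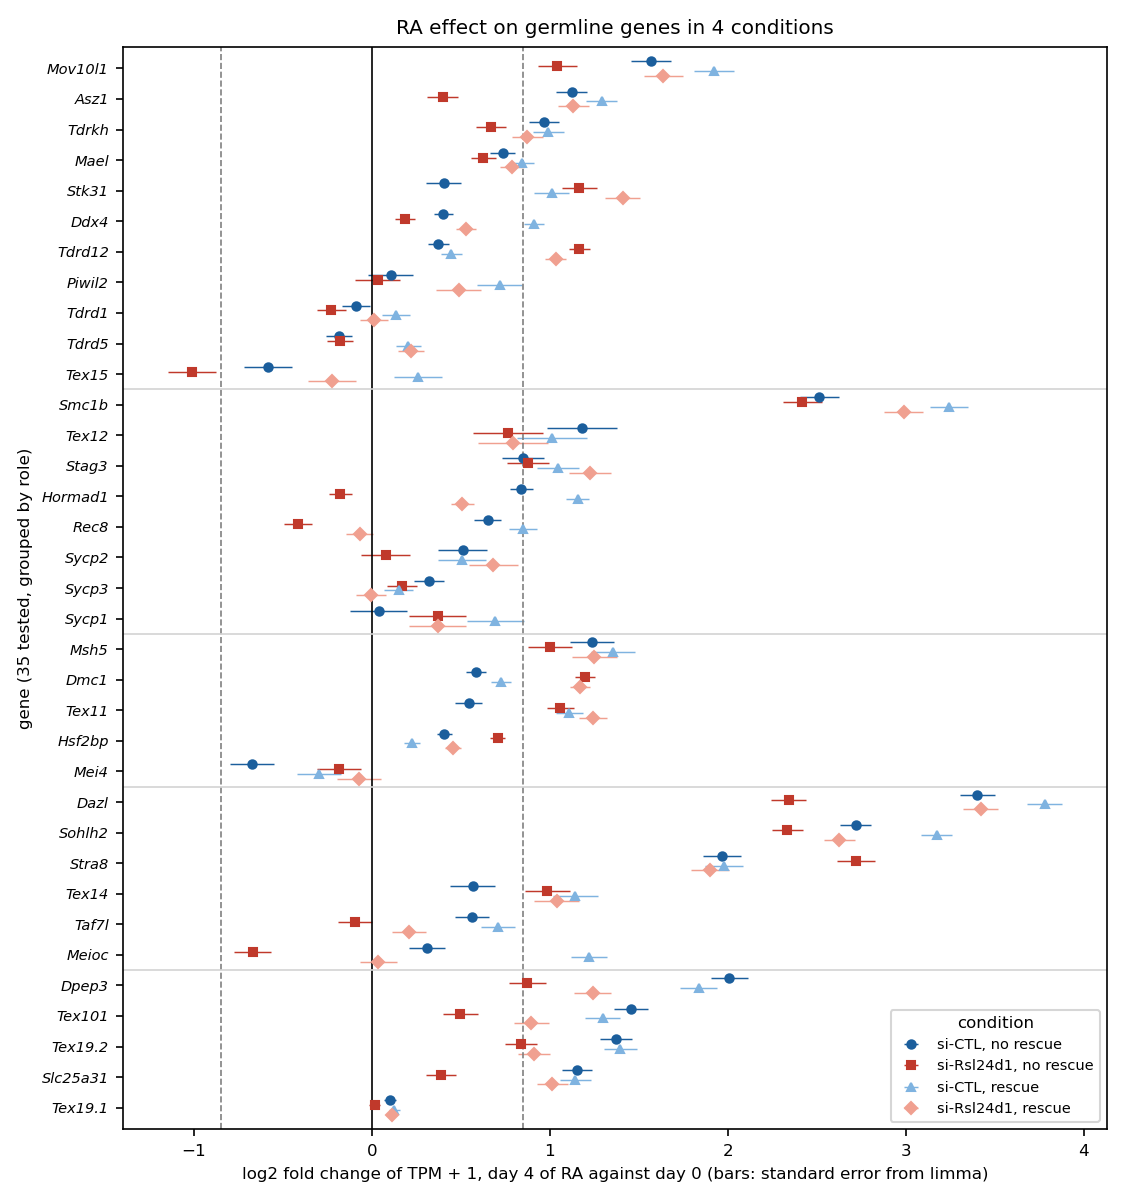
Points give the log2 fold change of TPM + 1 from day 0 to day 4 of RA for the 35 tested genes (rows, grouped by role) in 4 conditions (colours and shapes), with the standard error from limma, and dashed lines mark the fold threshold of 0.848. Dazl lies farthest right, at 3.40 in si-CTL without rescue and 3.78 with rescue, and Tex15 in si-Rsl24d1 without rescue is the one called point on the left, at −1.01.

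Other genes of the same pathways were read from lists, whose counts stand against the same 6.77% of tested genes called higher and 8.24% lower. Of 13 further piRNA pathway genes tested, 4 were called higher with RA in si-CTL without rescue and none lower, led by Gpat2 at 2.20, a mitochondrial acyltransferase homolog of the piRNA pathway, Fkbp6 at 1.70 and Gtsf1 at 1.57. Of 29 further meiosis genes, 7 were called higher and none lower, among them Cntd1 at 2.63, Meiob at 2.12 and Rec114 at 2.11. Of 17 further germ cell regulators, 7 were called higher and 2 lower. The rises were led by the testis tubulins Tuba3b at 2.40 and Tuba3a at 1.93, near-identical copies whose reads may be shared, and the falls were those of Zp3, a protein of the egg coat, by 1.90 and Lin28a by 1.84. Tuba3b, with day 0 group means of 0.355 to 0.512, and Magea4 of the same list, with 0.259 to 0.297, averaged under 0.5 at day 0. As for Asz1, the limit for testing helped to select these 2 rises. Zp3 was also the one gene of 7 oocyte markers that could be tested.

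A list of repressors and DNA methylation factors of germline promoters was measured in the same libraries. It holds Polycomb members, DNA methyltransferases and also Tet1 and Tet2, which remove DNA methylation. Of its 26 genes, 14 were called lower at day 4 in si-CTL without rescue and none higher, against 8.24% and 6.77% of tested genes, with Dnmt3b at −2.99, Dnmt3a at −1.93 and L3mbtl2 at −1.51. Tet1 (−1.5) and Tet2 (−1.33) were among the 14. Their summed level was 3170 to 3480 TPM at day 0 and 1750 to 1820 at day 4. In the other 3 conditions fewer of the 26 were called lower. There were 3 in si-Rsl24d1 without rescue, 5 in si-CTL with rescue and 4 in si-Rsl24d1 with rescue. The shares of tested genes called lower were 6.22%, 4.82% and 5.57% in the same order. E2f6 itself differed by −0.01 and Mga by −0.55, neither called. Their part in the germline values was not tested.

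Markers of other cell types were read beside the rise. Of 7 markers of primordial germ cells, 2 were called higher with RA in si-CTL (Dppa3 by 2.05, Itgb3 by 1.44), and their summed level was 149 to 152 TPM at day 0 and 439 to 452 at day 4, with none at 0. Dppa3 held most of this sum, with mean levels of 6.40 and 8.45, while Prdm1, a regulator that sets the germ cell fate, went from 3.24 to 2.88. Of 7 tested markers of the 2-cell-like state, 5 were called higher, led by Gm4340 at 2.49, Zscan4f at 1.44 and Zscan4d at 1.36, with summed levels of 14.4 to 18.2 and 57.1 to 59.6 TPM. Primitive endoderm markers gave 3 of 6 tested, with Dab2 at 1.48. Testis somatic markers gave none of 4 tested, with sums of 9.32 to 11.9 and 9.74 to 11.0 TPM and with Fshr at 0 in all libraries of both groups. The 8 spermatid markers were all under the limit for testing. In si-CTL they summed to at most 0.722 TPM at day 0 and 1.52 at day 4, with Prm1, Prm2 and Akap4 among those at 0 in both. The part of these cell states in the germline values was not tested.

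Knockdown of Rsl24d1 at day 0 touched fewer of the genes. Without rescue, 3 of the 35 were called higher and 1 lower in si-Rsl24d1 against si-CTL, where 3.40% of all tested genes were called higher and 0.772% lower. With 0.1 added to TPM in place of 1, 6 were called higher and 1 lower. On the adjusted p alone, 7 were higher and 8 lower, against 14.3% and 16.1%. The median of the 35 was 0.02 and that of all tested genes −0.01.

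Both axis genes called at day 0 went up. Rec8 was at 3.59, 3.32 and 3.31 in si-CTL and at 4.50, 4.38 and 4.45 in si-Rsl24d1, a rise by 1.04 (SE 0.08, limma adjusted p = 1.53e-09). Hormad1 was at 3.50, 3.64 and 3.59 and at 4.53, 4.41 and 4.47, a rise by 0.90 (SE 0.06, limma adjusted p = 8.27e-10). For both genes all 3 knockdown libraries exceeded all 3 controls, and mean TPM was 9.65 ± 1.20 and 20.8 ± 0.907 for Rec8 and 10.9 ± 0.597 and 21.2 ± 0.933 for Hormad1. With 2 added to TPM, Hormad1 differed by 0.84 and was not called. Meioc, which sustains meiotic prophase, was at 3.91, 3.58 and 3.67 and at 4.65, 4.62 and 4.58, a rise by 0.90 (SE 0.10, limma adjusted p = 7.55e-07). Its groups did not overlap, though the call was lost without si-CTL replicate 2, at 0.83.

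Stra8 was the gene called lower. Its libraries were at 2.12, 2.06 and 2.25 in si-CTL and at 1.26, 1.31 and 1.25 in si-Rsl24d1, and it fell by 0.87 (SE 0.11, limma adjusted p = 1.41e-06). The 3 knockdown libraries were close together and well below the controls. Without si-CTL replicate 3 the difference was −0.82, under the fold threshold, as it was with 2 added to TPM (−0.67).

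Other genes differed on the adjusted p alone. Tex15 differed by 0.81, Taf7l, a TFIID subunit of germ cells, by 0.67, and Dpep3 by 0.48. Dmc1 differed by −0.68, Hsf2bp by −0.55, Mei4 by −0.49, Stag3 by −0.47, Tdrd12 by −0.44 and Stk31 by −0.39. Exons of Hsf2bp overlap those of Rrp1b, a ribosome biogenesis gene, and the caution on the library kit holds here too.

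The other genes for which library values were set to be shown stayed under the fold threshold. Dazl was at 3.35, 3.09 and 2.93 in si-Rsl24d1 at day 0 against 3.00, 2.62 and 2.70 in si-CTL, so the groups overlapped. Its difference of 0.35 passed on the adjusted p alone (limma adjusted p = 0.00654). Mael was at 3.18, 3.16 and 3.19 in si-Rsl24d1 against 3.39, 3.47 and 3.61, all lower. Its difference of −0.31 likewise passed on the adjusted p alone (limma adjusted p = 0.00106). Sycp3 was at 5.03, 5.04 and 4.88 against 5.17, 5.38 and 5.21, below si-CTL by −0.27 (limma adjusted p = 0.0137). Ddx4 was at 3.45, 3.50 and 3.47 against 3.52, 3.45 and 3.41, within the spread, and the difference was 0.02. Tex19.1 was at 6.14, 6.10 and 6.12 and Tex19.2 at 1.25, 1.03 and 1.13, with differences of −0.04 and 0.01.

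With rescue, the siRNA comparison at day 0 called none of the 35, where 1.17% of tested genes were called higher and 0.188% lower, and 5 genes were higher and 3 lower on the adjusted p alone, against 8.1% and 5.64%. At an unadjusted limma p under 0.05 there were 16. Hormad1 still differed by 0.74, Meioc by 0.67 and Rec8 by 0.67. Stra8 differed by −0.31. Set directly against si-Rsl24d1 without rescue, rescued si-Rsl24d1 cells had lower Rec8 (−0.47), Meioc (−0.52) and Hormad1 (−0.35) and higher Stra8 (0.58) on the adjusted p alone, and none was called, where 0.28% of tested genes were. In all, 2 genes were higher and 5 lower on the adjusted p alone in that comparison, against 3.06% and 12.2% of tested genes, and 4 and 3 after median of ratios scaling, and 14 passed an unadjusted limma p of 0.05. The interaction between siRNA and rescue at day 0, which tests whether the siRNA effect itself differed, called none of the 35, where 0.128% of tested genes were called, and 7 passed an unadjusted p of 0.05. Its limma adjusted p was 0.0309 for Stra8, 0.0533 for Rec8, 0.391 for Hormad1 and 0.477 for Meioc. Doxycycline in si-CTL cells at day 0 called none of the 35 and none of the 16447 genes, and 2 of these (0.0122%), both lower, passed on the adjusted p alone. At an unadjusted limma p under 0.05 there were 8 of the 35, all lower, and 6739 of all tested genes, whose median log2 fold change was −0.12.

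**Figure D3:**
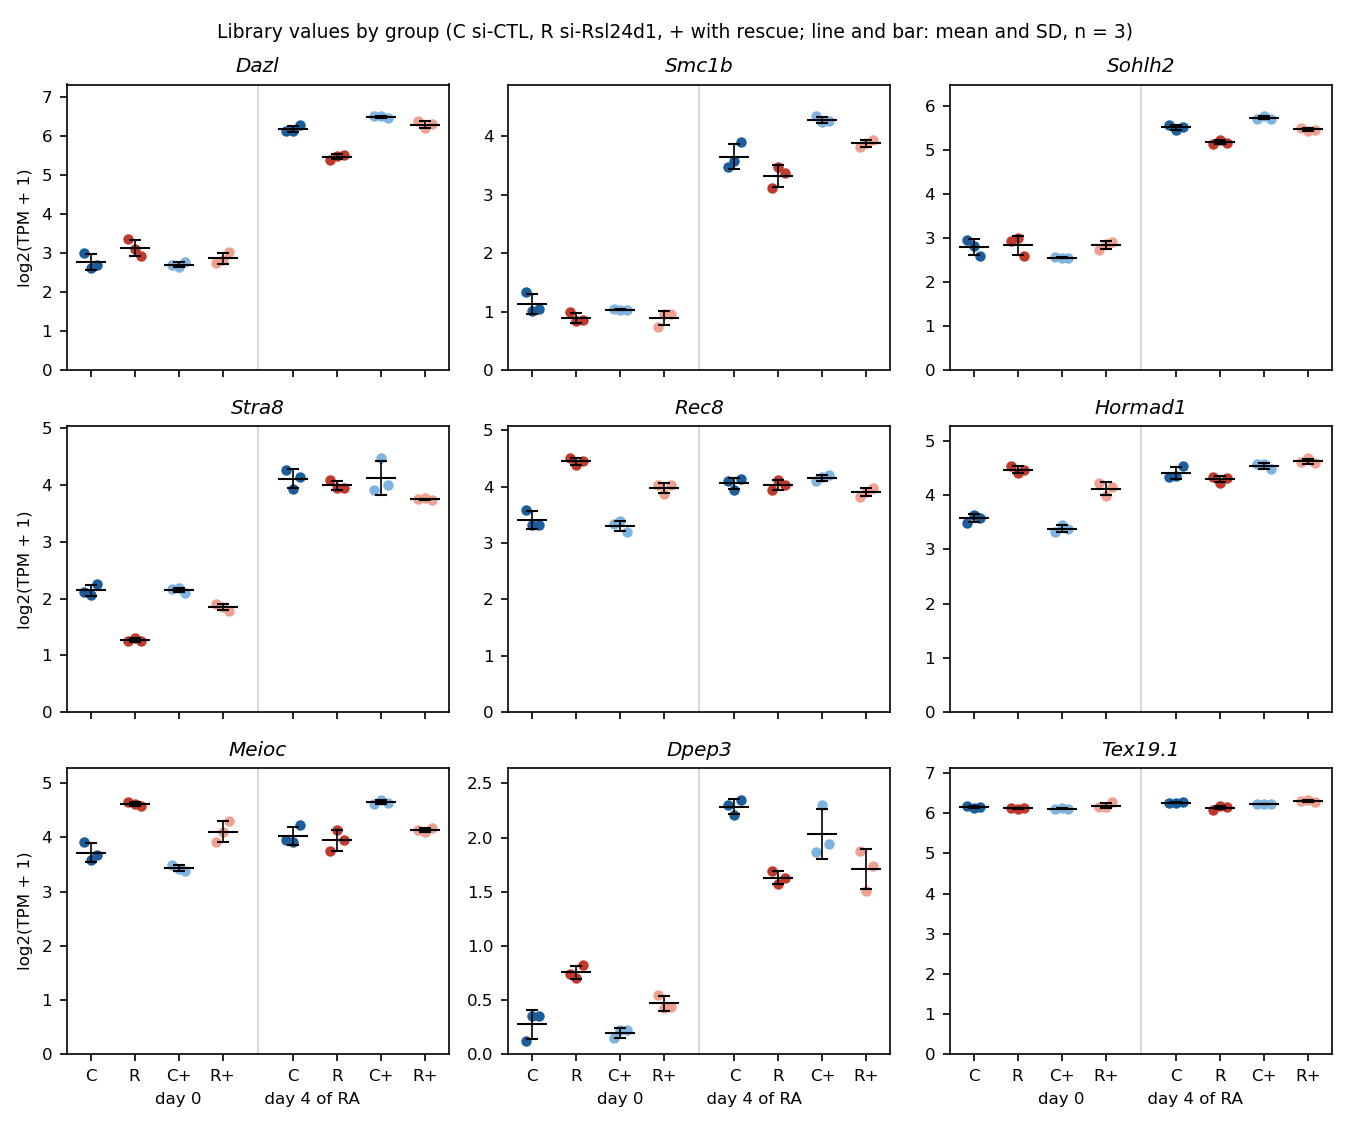
Each dot is a library and gives log2(TPM + 1) of 1 of 9 genes in si-CTL (C) and si-Rsl24d1 (R) cells with no rescue or with it (+), before RA and on its day 4, and the line and bar give the mean and SD of 3 libraries. Among the 4 day 0 groups, Rec8, Hormad1 and Meioc are highest in R and Stra8 is lowest there, Dazl, Smc1b and Sohlh2 step up from day 0 to day 4, and Tex19.1 stays level.

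Other lists were also read at day 0 in the comparison without rescue, against the same 3.40% of tested genes called higher and 0.772% lower. The further piRNA pathway genes gave Mybl1, a transcription factor of pachytene piRNA genes, called higher by 0.97, and Mov10, an RNA helicase, called lower by −1.60. The further meiosis genes gave Rec114, higher by 0.90, and the further germ cell regulators gave Dmrtb1 and Nanos1, higher by 1.92 and 1.11. None of the 26 repressors and DNA methylation factors was called, although 3 were higher and 12 lower on the adjusted p alone, against 14.3% and 16.1% of tested genes. The 3 that were higher were Yaf2 (0.52), Dnmt3a (0.52) and E2f6 (0.36), and among the 12 that were lower Uhrf1 (−0.58), Dnmt3b (−0.53) and Ehmt2 (−0.51) differed most. Of the 7 tested markers of the 2-cell-like state, 4 were called higher, with sums of 14.4 to 18.2 TPM in si-CTL and 40.9 to 46.6 in si-Rsl24d1. Of the 8 pluripotency markers, 2 were called lower (Esrrb by −1.09, Zfp42 by −0.96). Primordial germ cell markers summed to 149 to 152 TPM and 135 to 137 TPM, with none of 7 called. The part of these states in the siRNA effect was not tested.

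At day 4, where Rsl24d1 itself no longer differed, none of the 35 was called between si-Rsl24d1 and si-CTL without rescue, while 1.45% of tested genes were called higher and 0.182% lower. With 0.1 added to TPM, 3 were called, all lower. On the adjusted p alone, however, 15 were lower and 3 higher, against 6.04% and 24.9% of tested genes, and 20 passed an unadjusted limma p of 0.05. The median of the 35 was −0.17 and that of all tested genes 0.13. After median of ratios scaling, which sets the median of all genes near 0, 19 were lower and none higher on the adjusted p alone, and 2 were called, Tex101 at −0.90 and Dazl at −0.87.

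Tex101 differed most, at 2.68, 2.44 and 2.57 in si-CTL and 1.8 in all 3 libraries of si-Rsl24d1, a difference of −0.77 (SE 0.10, limma adjusted p = 7.28e-06). Dazl was at 6.12, 6.13 and 6.27 and at 5.39, 5.49 and 5.52, a difference of −0.71 (SE 0.10, limma adjusted p = 1.96e-05). Dpep3 was at 2.30, 2.21 and 2.35 and at 1.69, 1.57 and 1.63, a difference of −0.66 (SE 0.10, limma adjusted p = 7.74e-05). In each of the 3 genes the si-Rsl24d1 libraries all lay below si-CTL and above the day 0 levels. All 5 genes of the group with the Tex19 paralogs were lower on the adjusted p alone, with Slc25a31 at −0.61, Tex19.2 at −0.52 and Tex19.1 at −0.13.

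The values of the other genes at day 4 were closer. Mael was at 3.81, 3.79 and 3.82 in si-Rsl24d1 against 4.24, 4.16 and 4.27, lower by −0.42 without a call. Sycp3 was at 5.23, 5.13 and 5.10 against 5.57, 5.50 and 5.65, also by −0.42. Ddx4 was at 3.55, 3.76 and 3.68 against 3.86, 3.77 and 3.95, just separated, with a difference of −0.20. Stra8 was at 4.09, 3.94 and 3.95 against 4.26, 3.93 and 4.15, so the groups overlapped (−0.12, limma adjusted p = 0.378). Rec8 was at 3.94, 4.12 and 4.03 against 4.11, 3.94 and 4.13, with the same overlap (−0.03, limma adjusted p = 0.793). Tex19.1 was at 6.09, 6.17 and 6.15 and Tex19.2 at 1.87, 1.97 and 2.08 in si-Rsl24d1, both under si-CTL in every library. The 3 genes higher on the adjusted p alone were Stk31 at 0.37, Tdrd12 at 0.35 and Tex11 at 0.27, and none of these passed after median of ratios scaling.

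With rescue, the same comparison at day 4 called none, where 0.693% and 0.0365% of tested genes were called higher and lower, and 1 gene was higher and 3 lower on the adjusted p alone, against 2.33% and 3.53%. At an unadjusted limma p under 0.05 there were 15. Rescued against unrescued si-Rsl24d1 cells at day 4 also called none (0.0851% of tested genes called), with 8 higher and none lower on the adjusted p alone, against 0.936% and 4.23% of tested genes, and 18 at an unadjusted limma p under 0.05. Dazl led these at 0.82 (limma adjusted p = 2.93e-05), and its rescued libraries were at 6.37, 6.19 and 6.30. Doxycycline in si-CTL cells at day 4 called none (0.0547%), but 4 were higher and none lower on the adjusted p alone (8.85% and 1.34% of tested genes). Among these were Smc1b at 0.63 and Meioc at 0.62. After median of ratios scaling 4 were higher and 2 lower, and as deposited 12 passed an unadjusted limma p of 0.05.

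At day 4, of the other lists, the piRNA pathway gave Gtsf1, called lower by −0.89, and the meiosis genes and germ cell regulators gave none. None of the 26 repressors and DNA methylation factors was called, with 11 higher and none lower on the adjusted p alone, against 24.9% and 6.04% of tested genes. The 11 were led by Tet2 at 0.83, Dnmt3a at 0.64 and Dnmt3b at 0.60. The 26 summed to 1750 to 1820 TPM in si-CTL and 1850 to 2110 in si-Rsl24d1. Primordial germ cell markers summed to 439 to 452 and 320 to 369 TPM, with none of 7 called. Markers of primitive endoderm were called higher in 4 of 6 tested, with sums of 55.0 to 65.0 and 102 to 142 TPM. Mean levels of the 2-cell-like marker Zscan4c were 3.30 in si-CTL and 4.38 in si-Rsl24d1. Those of Zscan4f were 4.54 and 5.64, and those of Gm4340 4.01 and 4.32. With rescue, Zscan4f (1.39), Zscan4c (1.28) and Zscan4d (1.27) were among those called higher in si-Rsl24d1, where 0.693% of tested genes were. Zfp352 (0.70) and Gm4340 (0.90) were not called there. The part of these states in the germline values was not tested.

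The siRNA effect was compared between the days in an interaction without rescue, in which the 2 effects share no library. Here 6 of the 35 were called lower and none higher, so the siRNA effect at day 4 lay below that at day 0, against 2.71% and 2.90% of tested genes. With 0.1 added to TPM, 9 were called lower and 2 higher. On the adjusted p alone, 10 were lower and 6 higher, against 8.83% and 22.1%, and 14 and 5 after median of ratios scaling. The median of the 35 was −0.22 and that of all tested genes 0.14.

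The 6 genes fell in 2 patterns. Rec8 (−1.07, SE 0.11, limma adjusted p = 2.91e-07), Hormad1 (−1.02, SE 0.09, limma adjusted p = 4.32e-08) and Meioc (−0.98, SE 0.15, limma adjusted p = 2.84e-05) were higher with si-Rsl24d1 at day 0, and their differences at day 4 of −0.03, −0.12 and −0.08 did not pass the adjusted p. Hormad1 libraries at day 4 were at 4.34, 4.36 and 4.54 in si-CTL and 4.34, 4.23 and 4.31 in si-Rsl24d1, and Meioc libraries at 3.94, 3.92 and 4.23 and at 3.75, 4.14 and 3.95. Mean levels in knockdown cells at day 0 were 4.44 for Rec8, 4.47 for Hormad1 and 4.62 for Meioc, and in si-CTL cells at day 4 they were 4.06, 4.41 and 4.03. Dazl (−1.06, SE 0.14, limma adjusted p = 6.13e-06), Dpep3 (−1.13, SE 0.15, limma adjusted p = 5.39e-06) and Tex101 (−0.96, SE 0.14, limma adjusted p = 1.75e-05) were at or above si-CTL on average at day 0 and below it at day 4. Dpep3 libraries at day 0 were at 0.74, 0.71 and 0.82 in si-Rsl24d1, all above si-CTL, and Tex101 libraries at 1.10, 1.30 and 1.5, which overlapped si-CTL.

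Genes higher in the interaction on the adjusted p alone were Tdrd12 (0.79), Stk31 (0.76), Stra8 (0.75), Dmc1 (0.62), Tex11 (0.52) and Hsf2bp (0.30). For Stra8 and Dmc1 the siRNA effects were −0.87 and −0.68 at day 0, and at day 4 Dmc1 libraries were at 3.92, 3.98 and 3.90 in si-CTL and 3.90, 3.89 and 3.83 in si-Rsl24d1.

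The other lists held calls in both directions in the interaction, against the same 2.71% of tested genes called lower and 2.90% higher. The further germ cell regulators had Dmrtb1 (−1.95) and Nanos1 (−1.10) called lower and Zp3 (0.99) and Lin28a (0.98) higher. The further meiosis genes had Rec114 (−1.31) and Syce3 (−0.85) called lower, and the further piRNA pathway genes had Mov10 (1.59) called higher. Of these, Dmrtb1, Nanos1, Rec114 and Mov10 had been called at day 0, and none of the 4 was called at day 4. Of the 26 repressors and DNA methylation factors, 3 were called higher, Tet2 (1.35), Dnmt3b (1.13) and Mga (0.90). Of the 8 pluripotency markers, 4 were called higher, led by Esrrb (1.24), Tfcp2l1 (1.18) and Zfp42 (1.03). Prdm1 (1.02) was the one of 7 primordial germ cell markers called, also higher, and Lama1 (1.82) the one of 6 primitive endoderm markers. The part of these states in the interaction was not tested.

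**Figure D4:**
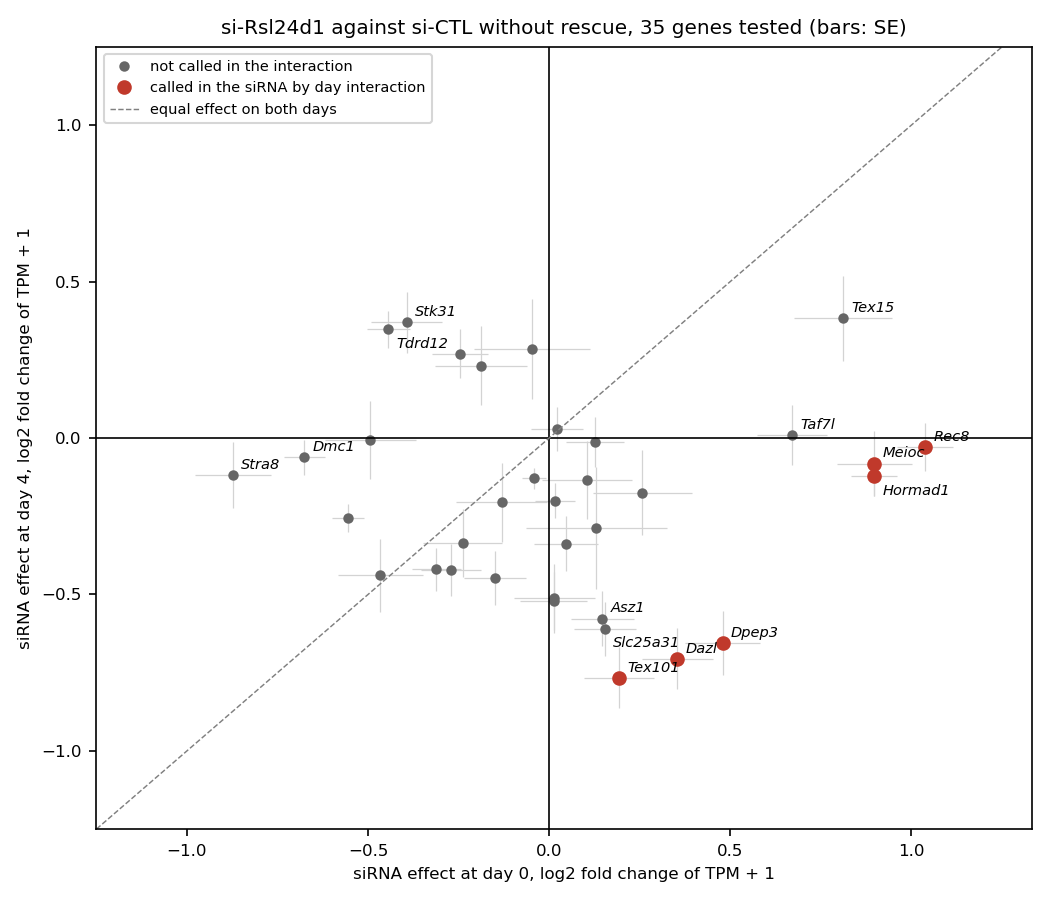
Each point is 1 of 35 genes and gives the log2 fold change of TPM + 1 in si-Rsl24d1 against si-CTL without rescue at day 0 (horizontal) and at day 4 (vertical), with standard errors, and red points were called in the interaction. Rec8, Hormad1 and Meioc lie on the right near a vertical value of 0, and Dazl, Dpep3 and Tex101 lie below it.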

How the data were processed

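RNA-seq was measured in 24 libraries, grouped by the sample titles. The authors deposited log2(TPM + 1) values of 54242 gene symbols, which they obtained from Salmon transcript estimates through tximport. Per the labels the tools were STAR 2.7.8a and Salmon 1.4.0, and the labels name a human genome build. The methods name other versions, a mouse build and a total RNA kit, whereas the labels name a poly-A kit. Transcripts without poly-A tails and overlapping genes could be affected. No read numbers are kept, so no count model was used, depth is unknown, and precision rests on 3 libraries a group. The labels call these independent triplicates.

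The 16447 genes whose mean log2(TPM + 1) reached 0.5 entered a test with limma 3.58.1 in R 4.3.3 (a mean for each of 8 groups, moderated variances with a trend on level, two-sided, Benjamini-Hochberg adjustment within each of 14 comparisons), and the script was tested on simulated data. A single gene with 3 against 3 libraries cannot go below an exact permutation p of 0.1. The members and lists were chosen with earlier results of these data known. Library values were shown for called genes with the largest changes, at most 8 a comparison, and for Dazl, Ddx4, Sycp3, Mael, Stra8, Rec8, Tex19.1 and Tex19.2. Of other lists, up to 3 called genes a direction were named; the uncalled values of E2f6, Mga, Yaf2, Uhrf1, Ehmt2, Dnmt3a, Dnmt3b, Nanog and Prdm1, and those of Tet1 and Tet2, were added after values were seen. The values of 1 marker gene are not reported here. Alternatives were 0.1 or 2 added to TPM, other filters, median of ratios scaling, a fit of the compared groups, a replicate block, no fold threshold and leaving out each library.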

Additional observations from a re-analysis of the deposited data

Results flagged for a closer look

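For 6 genes the siRNA effect without rescue differed between day 0 and day 4 in the test of the difference itself. The interaction was −1.13 for Dpep3, −1.07 for Rec8, −1.06 for Dazl, −1.02 for Hormad1, −0.98 for Meioc and −0.96 for Tex101, on the log2(TPM + 1) scale. Rsl24d1 was lower with its siRNA at day 0, by −1.95, and did not differ beyond the spread at day 4 (−0.04). Time since transfection, RA treatment and the level of Rsl24d1 change together between the days and cannot be told apart. Groups held 3 libraries, too few to look for single libraries far from the others.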

How the results depend on the processing

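Counts of called genes among the 35 kept within 1.5 times of the value reported with no filter, with a filter at a mean of 1.5 and when only the compared groups were fitted. With 0.1 added to TPM, 7 were called for the siRNA at day 0 without rescue, 2 with rescue, 3 for the siRNA at day 4 without rescue, 1 for rescue in si-Rsl24d1 at day 4 and 11 in the siRNA by day interaction. With 2 added, 2 were called for the siRNA at day 0, where Hormad1 (0.84) and Stra8 (−0.67) missed the fold threshold. Median of ratios scaling gave 2 for the siRNA at day 4 (Tex101 and Dazl) and 1 for rescue in si-Rsl24d1 at day 4. It brought the median of all tested genes, which as deposited was −0.10 for RA in si-CTL, 0.13 for the siRNA at day 4 and 0.14 in the interaction, to 0.02 or nearer 0.

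Without the fold threshold the counts were 15 and 8 for the siRNA at day 0 without and with rescue, 7 for rescue and 30 and 25 for RA in si-CTL and si-Rsl24d1 without rescue. At day 4 they were 18 and 4 for the siRNA without and with rescue, 8 for rescue and 4 for doxycycline in si-CTL, and the interaction had 16.

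Leaving out each library gave 3 to 5 genes for the siRNA at day 0, 13 to 15 for RA in si-CTL and also in si-Rsl24d1 without rescue, 20 to 22 and 17 to 19 with rescue, 6 to 7 in the interaction and 0 to 1 for rescue in si-Rsl24d1 at day 4, where the 1 came without rescued replicate 2. The other comparisons stayed at 0. Small differences changed sign: Tex19.2 at day 0 (−0.0448 to 0.065, with −0.043 without si-CTL replicate 1 and the lowest without si-Rsl24d1 replicate 1), Ddx4 at day 0 (−0.01 without si-CTL replicate 3, to 0.045) and Rec8 at day 4 (−0.0866 to 0.0161, with 0.0059 without si-CTL replicate 3 and the highest without si-Rsl24d1 replicate 1). The causes were not tested.

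Replicate numbers did not pair the libraries (mean correlation of deviations −0.02 over 84 pairs with the same number and 0.01 over 168 others). A replicate block gave 4 called genes for the siRNA at day 0 and 14 for RA in si-CTL, as without it, and changed the count of none of the 14 comparisons. Depth cannot be assessed, and changes of genes near 0 TPM are compressed by the added 1.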
